A study of Bos grunniens with 18 samples.

Results

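N6-methyladenosine (m6A) is a methyl mark on adenosines of messenger RNA. It is set in the nucleus by the METTL3 and METTL14 writer complex, removed by FTO and ALKBH5, and read by YTH-domain proteins that act on the splicing, translation and decay of the marked transcript. In mammalian messenger RNA the mark is known to lie mostly near stop codons and in 3′ UTRs, and also inside long internal exons. The regions described here are the m6A peaks of the yak ovary that the authors' annotation placed in an exon but in neither a 5′ UTR nor a 3′ UTR, 213 of 310 annotated peaks in all, and they are called exon peaks below. Apart from these labels, the annotation does not separate coding from noncoding exon sequence.

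Ovaries were taken from 6-year-old yaks (Bos grunniens) in 3 reproductive stages: anestrus in April (YO-A), estrus, or the follicular phase, in August (YO-F) and pregnancy in December (YO-P). Every stage had 3 libraries of RNA pulled down with an antibody against m6A (IP) and 3 libraries of the RNA before the pull-down (input), all from fragmented poly(A) RNA of whole ovarian tissue. The yaks were described as healthy and of 1 age, no treatment is named, and stage and month of collection cannot be told apart. Peaks were given as 1 list per stage, so the exon peaks of a stage have no spread between replicates, and no test between the stages was made on them. The library YO-F2, estrus replicate 2, which the study left out after a principal component analysis, lay more than 1 log2 unit outside all other input libraries for 33 of 173 genes, against 0 to 3 genes for each other library. Whether it entered the estrus peak list was not stated, and the estrus list could not be made without it here.

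The parts of the lists analysed here run along chromosome 1 of the Bos grunniens genome, in the positions given by the files, and the assembly behind these positions is not named in the sources used here beyond a version number of the genome in the study's methods. The anestrus list reached position 27546263 of the plus strand and the estrus list position 36965772 of the plus strand. The pregnancy list covered the plus strand up to 172200451 and the minus strand from 11912863 to 46144327. The strands were inferred from the order of the peaks in the lists. The numbers of peaks of the 3 stages therefore describe stretches of very different length and are not compared, except within the stretch that all 3 lists cover.

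The list of YO-A held 6 exon peaks among 10 peaks, that of YO-F 11 among 18 and that of YO-P 196 among 282. Exon peaks thus made up 60.0% of the anestrus peaks (95% Clopper-Pearson interval 26.2 to 87.8%), 61.1% of the estrus peaks (35.7 to 82.7%) and 69.5% of the pregnancy peaks (63.8 to 74.8%), where the intervals cover counting error only. The 3 intervals overlap, and in each list exon peaks were the most numerous class. Peaks in 3′ UTRs came next with 3, 6 and 58 peaks, and peaks in 5′ UTRs were 1, 1 and 28. Within the stretch that all 3 lists cover, exon peaks numbered 6 of 10 in YO-A, 5 of 7 in YO-F and 4 of 6 in YO-P.

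**Figure D1:**
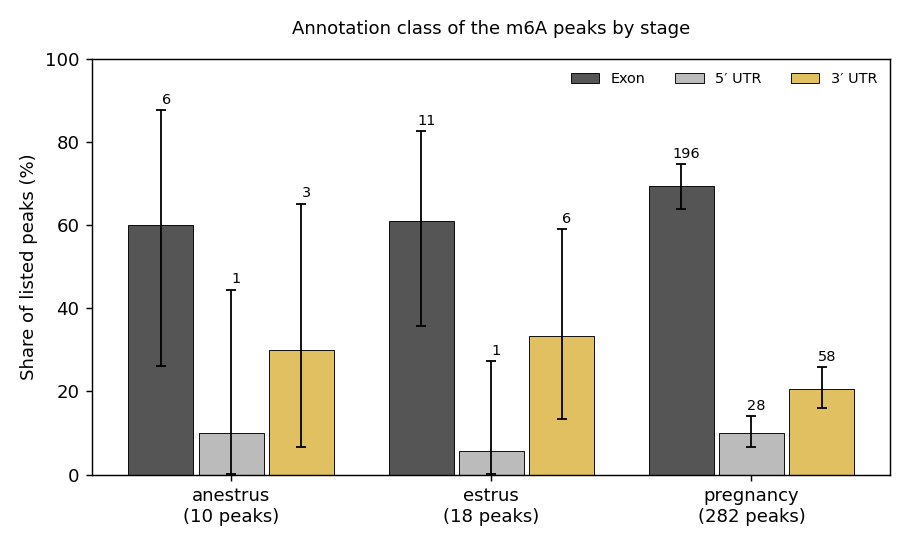
Share of the listed peaks (y axis, %) in each annotation class for the lists of the 3 stages (x axis), with the number of peaks above each bar and the 95% Clopper-Pearson interval as error bar. Exon peaks made up 60.0, 61.1 and 69.5% of the lists, and the intervals of the stages overlap widely.

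A peak in these lists is a set of blocks of transcript sequence, and where it has more than 1 block its span includes the gaps between them, such as introns. All 6 exon peaks of YO-A had several blocks, as did 7 of 11 in YO-F and 71 of 196 (36.2%) in YO-P. In the pregnancy list this compares with 53.6% of the peaks in 5′ UTRs and 27.6% of those in 3′ UTRs, a difference that was not tested since peaks of 1 list are not replicates. The median genomic span of an exon peak was 13541 bases in YO-A, 1143 in YO-F and 315.5 in YO-P. The summed length of the blocks, which is the sequence in the transcript itself, had medians of 180, 180 and 210 bases. In the stretch that all 3 lists cover, the median span was 13541 bases over 6 peaks in YO-A, 5026 over 5 in YO-F and 377.5 over 4 in YO-P, and the median block length was 180, 180 and 225 bases. In the pregnancy list the 125 exon peaks of 1 block had a median length of 181 bases, and the 71 of several blocks had a median block length of 240 bases inside a median span of 5876 bases. Blocks made up 2.05% of the summed span of those 71 peaks, and the gaps between blocks the remainder.

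**Figure D2:**
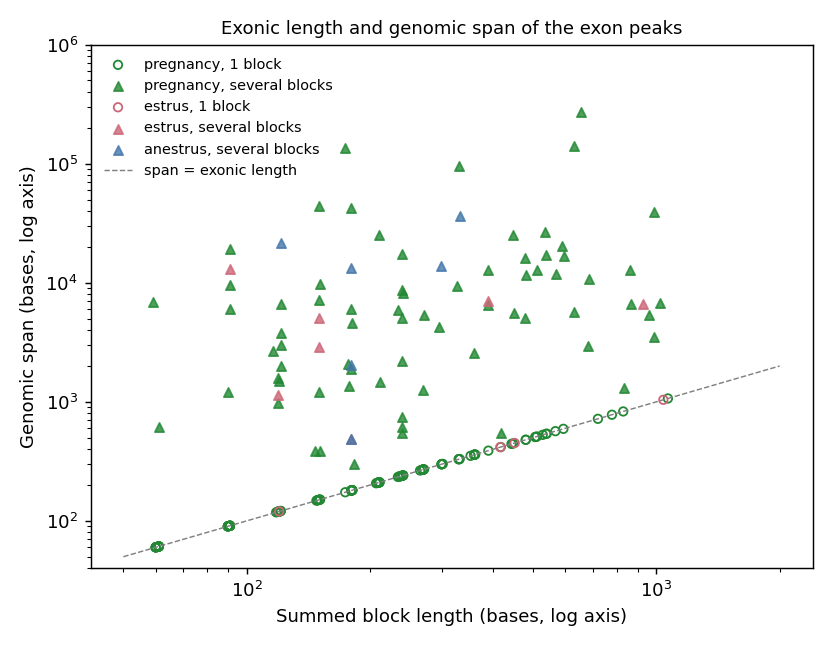
Genomic span (y axis, bases, log axis) against summed block length (x axis, bases, log axis) of the 213 exon peaks, with open circles for peaks of 1 block and triangles for peaks of several blocks. Circles lie on the dashed line of equal span and length, while triangles rise from it to a span of 272204 bases, and no block length exceeds 1067 bases.

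The longest spans were found in pregnancy. The longest, 272204 bases from 44546092 to 44818295, crossed introns of EPHA6, an ephrin receptor tyrosine kinase, with 4 blocks that sum to 656 bases. EPHA3, another ephrin receptor, had a peak of 139895 bases and 3 blocks from its first of 17 exons, and C3orf70 one of 135296 bases and 2 blocks. PLCH1, a phospholipase C, followed with 95810 bases, GOLIM4, a Golgi membrane protein, with 44326 bases, and ENSBGRG00000000064 with 42297 bases. The listed log10 p was -2.89 for EPHA6, -1.56 for EPHA3, -4.12 for C3orf70, -1.37 for PLCH1, -5.76 for GOLIM4 and -97.0 for ENSBGRG00000000064. For EPHA3 and PLCH1 the listed false discovery rate of these long peaks was not under 0.05. These spans show the distance between the outer blocks and not a methylated stretch of that length. The gene bounds listed with a peak can differ between peaks of 1 gene, as for CLDND1 (46067974 and 46068192), so they may be those of 1 transcript. The peak assigned to ENSBGRG00000000064, in a transcript of 1 exon, was longer than the 1101 bases between the bounds listed with it. Among the 184 pregnancy peaks compared it was the only 1 longer than its listed bounds, while 7 reached outside them. In all, 22 exon peaks of YO-P spanned more than 10000 bases and 3 more than 100000 bases. Among the smallest blocks of these peaks, 20 pregnancy peaks had 1 of less than 20 bases, as had 4 in anestrus and 2 in estrus, and the smallest, in KALRN and in ENSBGRG00000000124, held 2 bases.

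At the other end of the scale, the shortest exon peaks of YO-P had 1 block of 60 bases. They lay in SLC35A5, MB21D2, MCF2L2, C3orf33, P2RY12 and GALNT15. Of the 125 pregnancy peaks of 1 block, 103 (82.4%) had a length within 1 base of a multiple of 30 bases, where 10% of all possible lengths do. Over all exon peaks the summed block length met this in 5 of 6 in YO-A, 8 of 11 in YO-F and 152 of 196 in YO-P. Most lengths thus fall on steps of about 30 bases, and the step was chosen after the values were seen.

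The annotation gives each peak the number of 1 exon in its transcript, also where its blocks lie in several exons. Exon numbers here are those of the annotation, so a peak counted as internal can lie mostly in the last exon. In YO-P, 109 exon peaks (55.6%) fell in an internal exon, 49 (25.0%) in the last exon, 21 (10.7%) in the exon of a transcript with 1 exon and 17 (8.67%) in the first exon of several. Of the 109 internal peaks 60 had several blocks, against 4 of the 49 in last exons. These counts depend on the numbering, since a peak that crosses from an earlier exon into the last can be counted as internal. They are therefore not read as a property of exon position. The median fold enrichment was 4.32 in internal, 4.14 in last, 5.25 in single and 6.48 in first exons. The p-values went the other way for first exons, with a median log10 p of -2.91 there against -12.6, -18.3 and -19.4 in internal, last and single exons. In YO-F the exon peaks comprised 7 internal, 3 last and 1 first, and in YO-A 4, 1 and 1. For the 184 pregnancy peaks whose nearest start site belonged to their host, 32 ended exactly at the gene end listed with the peak, 17 of them in a last exon of several. Of the same 184 peaks, 10 began at the listed gene start. For the other 12, the nearest start site belonged to another gene, as for ZNF654 near CGGBP1, GTF2E1 near SNORA70 and SENP5 near PAK2, and the host was taken from the exon itself.

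Fold enrichment is the ratio of the IP signal to the input signal in a peak. Its median over the exon peaks was 2.05 in YO-A (range 1.56 to 20.8), 3.89 in YO-F (1.70 to 13.8) and 4.48 in YO-P (1.21 to 29.2). In the pregnancy list the medians in 5′ UTRs and 3′ UTRs were 4.50 and 4.32, close to the exon peaks. In YO-F the 6 peaks in 3′ UTRs had a median of 7.17, and in YO-A the 3 there had 5.03. The middle of the p-values differed more between classes in pregnancy, where the median log10 p was -12.3 for exon peaks, -4.31 in 5′ UTRs and -32.2 in 3′ UTRs. The false discovery rate as listed was under 0.05 for all 6 exon peaks of YO-A, for 9 of 11 in YO-F and for 163 of 196 in YO-P. The 33 pregnancy peaks above it all had a log10 p above -10.

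**Figure D3:**
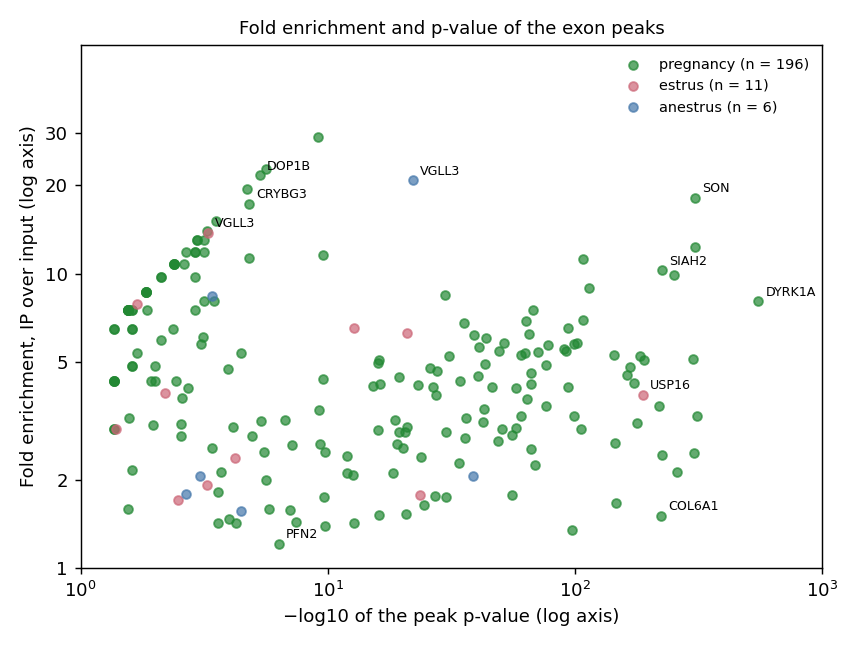
Fold enrichment of IP over input (y axis, log axis) against the −log10 of the peak p-value (x axis, log axis) for each exon peak, coloured by stage. The highest folds, up to 29.2, sit at the left with modest p-values on a row of repeated steps, while the labelled peaks of SON, SIAH2 and DYRK1A join folds of 18.1, 10.3 and 8.06 with log10 p values of -305, -224 and -552.

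Most of the largest folds of the pregnancy list came with modest p-values, although all 25 exon peaks with a fold of at least 10 had a listed false discovery rate under 0.05. The 6 largest were 29.2 in ENSBGRG00000002215, described as coproporphyrinogen oxidase, an enzyme of heme synthesis, 22.7 in ENSBGRG00000000644, 21.6 in DOP1B, 19.4 in ZDHHC23, a palmitoyltransferase, 18.1 in SON and 17.3 in CRYBG3. Only SON among these had a log10 p under -10, at -305, and the other 5 lay between -4.71 and -9.15. Of the 25 exon peaks with a fold of at least 10, 21 had a log10 p above -10, and the 4 below -50 were 2 peaks of SON, 1 of SIAH2 and 1 of DBR1. SIAH2, a ubiquitin ligase of the hypoxia response, reached a fold of 10.3 with a log10 p of -224, and DBR1, the enzyme that debranches intron lariats, 11.2 with -108. The median log10 p of the 25 was -3.25, and that of the other 171 was -18.3.

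Many of the peaks with a log10 p above -10, called weak below, shared the same fold to the last digit. A fold of 7.56 was listed for 12 exon peaks of YO-P in 11 genes, 4.32 for 8, and 10.8, 8.64 and 6.48 for 5 each. Together, 54 exon peaks had a fold that at least 2 others also had, and their median log10 p was -1.85, against -27.2 for the other 142. Of the 96 exon peaks with a log10 p above -10, 54 (56.2%) had a fold that equals a whole multiple of 1.08 at the 3 digits given, compared with 3 of the 100 stronger ones (3.00%). The weak peaks of both UTR classes did the same in 10 of 17 and 9 of 20 cases. The step of 1.08 is the most frequent distance between the repeated folds and was taken after the values were seen. Folds on these steps, which include the 29.2, 22.7 and 21.6 above, differ from each other by discrete amounts, and how the steps arose was not tested.

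The best supported exon peaks had moderate folds. A log10 p of -100 or lower was listed for 26 exon peaks of YO-P in 18 genes, with a median fold of 4.96 and a range from 1.51 to 18.1. The lowest log10 p was -552, in a peak of DYRK1A with 2 blocks and a fold of 8.06 in exon 10 of 10. DYRK1A is a dual-specificity kinase of the chromosome segment known for Down syndrome in humans. The 11872-base span reached beyond the gene end listed with the peak, 163534217, which may be that of 1 transcript. ARHGAP31, a GTPase-activating protein for Rac and Cdc42, had a log10 p of -312 at a fold of 3.30, and LSG1, a GTPase of ribosome assembly, -300 at 5.13. Low folds with strong p-values were listed for COL6A1 and COL6A2, which code for chains of collagen VI. COL6A1 had a fold of 1.51 with a log10 p of -222 in its last exon, and COL6A2 had 2.13 with -259 and 1.66 with -146. The smallest folds of the list, 1.21 in PFN2, a profilin, 1.35 in ENSBGRG00000000064 and 1.39 in EAF1, had log10 p values of -6.34, -97.0 and -9.74.

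In all, the exon peaks fell in 134 host genes, 5 in YO-A, 8 in YO-F and 131 in YO-P. 7 genes hosted exon peaks in at least 2 lists, and 3 of them, USP25, GABPA and ENSBGRG00000000034, in all 3. The estrus and pregnancy peaks of ENSBGRG00000000034 and the estrus peak of IFNAR1 had a listed false discovery rate not under 0.05. The overlaps below were not counted again under that limit. Within the shared stretch, 3 of 6 anestrus exon peaks (50.0%) overlapped 1 of the 5 estrus exon peaks on the same strand, and these were 3 of 5 (60.0%) of the latter. 2 of 6 anestrus peaks (33.3%) overlapped 2 of 4 pregnancy exon peaks (50.0%), among them that of ENSBGRG00000000034. Up to position 36965772, 3 of 11 estrus peaks (27.3%) overlapped 3 of 7 pregnancy exon peaks (42.9%). The counts were the same when the overlap had to include bases of shared blocks.

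USP25, which codes for a deubiquitinating enzyme, had the exon peak most alike in the 3 lists. In YO-A and YO-F the peak had the same borders, 16186709 to 16187193, with blocks of 7 and 173 bases. In YO-P the peak began at 16186650 and ended at the same base, which is the gene end listed with it. Its fold was 2.06 in YO-A, 1.77 in YO-F and 2.24 in YO-P, and its log10 p was -38.5, -23.5 and -69.0. A further peak of USP25 in YO-A, of 5 blocks from 16172664 to 16186530, had a fold of 1.56 and no counterpart in the other lists. USP16, another deubiquitinase, which acts on histone H2A, had nearly the same 4-block peak in YO-F and YO-P, from 31440744 to 31447434 and to 31447374. The fold was 3.89 with a log10 p of -188 in YO-F and 5.25 with -184 in YO-P, and no anestrus value can be given because the anestrus list analysed here ends before this gene.

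VGLL3, a cofactor of the TEAD transcription factors, had exon peaks from its first exon in YO-A (956600 to 969814) and YO-F (956570 to 969695). The fold was 20.8 with a log10 p of -22.1 in YO-A and 13.8 with -3.27 in YO-F, and the block sequence was 180 and 91 bases, of which 61 were shared. In YO-P a longer peak from 956005 to 982433 covered both and was annotated as 5′ UTR, with a fold of 17.8 and a log10 p of -25.9. For this gene the class changed between the lists while all blocks of the anestrus and estrus peaks lay within the pregnancy peak. ENSBGRG00000000034 had an exon peak in each list, with folds of 8.42, 7.89 and 7.56, and log10 p values of only -3.41, -1.69 and -1.61. The anestrus and pregnancy peaks of this gene shared 61 block bases, while the estrus peak lay apart from both. Both the anestrus and the pregnancy peak began before the start listed with them, 16680079. That listed start may be that of a transcript and not of the whole gene.

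GABPA, an ETS transcription factor of nuclear-encoded mitochondrial genes, carried exon peaks at different exons of 10. YO-A had 1 from exon 5 (fold 1.79, log10 p of -2.67), which lay within the peak of YO-F from exon 4 (2.37, -4.20), and YO-F had a further peak from exon 2 (1.92, -3.26). The exon peak of YO-P started in exon 8, from 27555041 to 27567800, with a fold of 3.57 and a log10 p of -76.7. A peak of YO-F annotated as 3′ UTR, from 27551366 to 27568039 with a fold of 108, covers that position, and the anestrus list analysed here ends before it.

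BACH1, a heme-binding transcription repressor, had 3 exon peaks in YO-F. A peak of 1040 bases in exon 2 had a fold of 6.30 with a log10 p of -21.0, and the next, 58 bases further on and 120 bases long, had 1.70 with -2.48. In the last exon a peak of 416 bases had a fold of 6.54 with a log10 p of -12.8. In YO-P the exon 2 peak was 506 bases long, lay wholly within the long estrus peak, and had a fold of 8.47 with a log10 p of -29.9. IFNAR1, a chain of the type I interferon receptor, had a peak from exon 10 of 11 in YO-F (fold 2.96, log10 p of -1.39, false discovery rate not under 0.05) and 1 in exon 11 in YO-P (4.14, -94.1). The 2 cannot be compared, because the estrus list analysed here ends with that peak, before the position of the pregnancy peak. NCAM2, a neural cell adhesion molecule, had an exon peak in YO-A (2.05, -3.03) and none in YO-F or YO-P, whose lists cover this position. EVA1C, a heparin-binding receptor, had 1 in YO-F (3.95, -2.19) and none in YO-P, and it lies beyond the end of the anestrus list analysed here.

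Most hosts of YO-P carried 1 exon peak, 26 carried 2 and 14 carried 3 or more. IGSF10, an immunoglobulin superfamily gene linked to the timing of puberty in humans, had the most, with 8 between 127005042 and 127017625. Of these, 5 lay in exon 6 of 8 with folds of 9.72, 4.15, 3.47, 4.90 and 2.64 and log10 p values between -2.11 and -76.0. The other 3, in exons 7 and 8, had folds of 6.98, 5.48 and 5.11 and log10 p values of -108, -92.3 and -191. The strongest peaks of IGSF10 by p-value were thus at the end of the gene, and the largest fold belonged to its weakest peak.

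SON, a protein of nuclear speckles needed for the splicing of weak introns, had 5 exon peaks of 1 block. The first, in exon 3 of 8, had a fold of 5.28. In exon 4 a run of 4 peaks within 2009 bases had folds of 9.93, 12.3, 18.1 and 2.66, with log10 p values of -252, -305, -305 and -145. The fold rose over the first 3 of them and then fell to the lowest value of the gene. NRIP1, a corepressor of nuclear receptors that is required for ovulation in mice, had 5 peaks within 3279 bases of its 1 exon. Their folds, by rising position, were 5.72, 7.56, 4.92, 6.07 and 11.9, and the peak of 11.9 was the only 1 with a weak log10 p, -2.89 against -43.2 to -77.9.

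**Figure D4:**
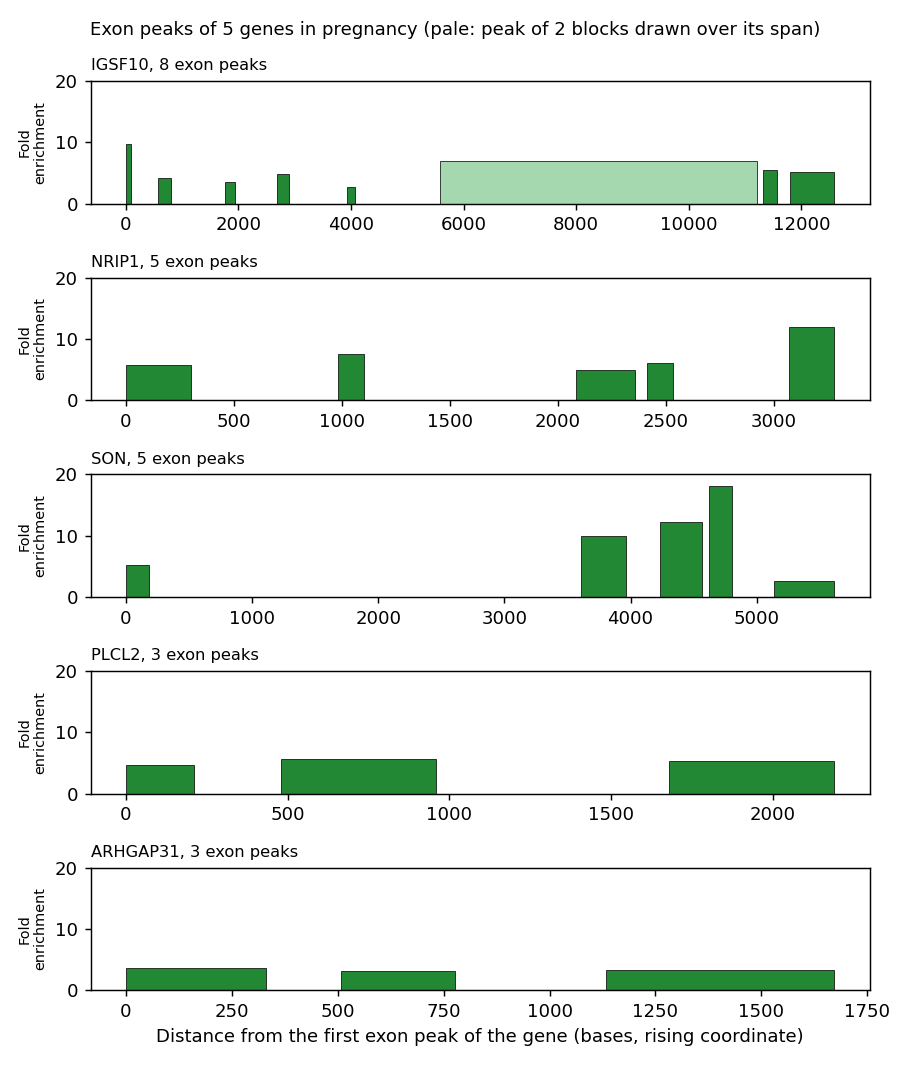
Fold enrichment of IP over input (y axis) of every exon peak of IGSF10, NRIP1, SON, PLCL2 and ARHGAP31 in pregnancy, drawn over its position as distance from the first exon peak of the gene (x axis, bases). Peaks of SON climb to 18.1 and fall to 2.66 within exon 4, whereas those of PLCL2 stay between 4.61 and 5.57 and those of ARHGAP31 between 3.12 and 3.56.

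Other hosts had several peaks of similar fold in 1 exon. PLCL2, a phospholipase C-like protein, had 3 in exon 3 of 7 (4.61, 5.57 and 5.30, all with a log10 p of -66.5 or lower), and ARHGAP31 had 3 in its last exon (3.56, 3.12 and 3.30, all at -179 or lower). RRP1B, a nucleolar protein, had 1.43, 4.14 and 6.24 in exons 9, 12 and 13, and MECOM, a zinc finger transcription regulator, had 11.6, 5.40 and 4.96. SLC35A5, AMOTL2, CCDC39, FBXO40 and P2RY12 had 3 each, and CRYBG3 and PLCH1 had 4. Of these, all peaks of FBXO40, P2RY12, CCDC39 and PLCH1 had a log10 p above -10. In 15 exons of YO-P at least 2 separate peaks of 1 block were listed, 43 peaks in all. The stretch from the first to the last of them was 420 to 4070 bases, and 10 of the 15 exons are therefore longer than 1000 bases.

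By function, hosts were counted in 6 lists of genes. Most members of each had no listed peak, and whether those members lie in the stretch covered here was not checked. Of 52 transcription and chromatin regulators, 12 had any listed peak and 7 hosted an exon peak: BACH1, BCL6, FOXL2, GABPA, MECOM, NRIP1 and VGLL3. The 13 pregnancy exon peaks of this list had a median fold of 5.72 (range 3.00 to 11.9), beside 4.48 over all 196. FOXL2, the transcription factor that keeps granulosa cell identity, had 1 peak of 299 bases in its 1 exon, from 141846048 to 141846346, with a fold of 4.53 and a log10 p of -162. BCL6, a transcription repressor, had 2 peaks numbered to exon 5 of 10. The first had a fold of 3.00 and a log10 p of -57.5. The second, with blocks of 3 and 147 bases, had a fold of 5.76 and a log10 p of -3.08. FOXL2 was also the only 1 of 24 ovarian cell markers with a listed peak, and 0 of the 24 are among the 173 genes of the expression table, so the tissue could not be checked by their levels.

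The extracellular matrix list had the lowest folds. Of its 33 genes, 4 hosted exon peaks in YO-P, and their 6 peaks had a median fold of 1.98. Beside COL6A1 and COL6A2 these were COL8A1, a short-chain collagen, with 3.23 and 3.76 in its last exon, and ADAMTS5, an aggrecanase, with 1.82. Of 34 genes of RNA binding and processing, SON and RBM11 hosted 6 peaks, 5 of them in SON, and RBM11, a splicing regulator, had a fold of 4.86 with a log10 p of -1.61. Of 36 adhesion and guidance genes, EPHA3, EPHA6 and NECTIN3 had 1 peak each in YO-P, and NCAM2 had 1 in YO-A. NECTIN3, a cell adhesion molecule, had a fold of 4.09 with a log10 p of -58.0, while EPHA3 (7.56) and EPHA6 (11.9) had log10 p values of -1.56 and -2.89.

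Of 30 kinases and signalling genes, 11 hosted 19 exon peaks in YO-P with a median fold of 4.32. PIK3R4, the regulatory subunit of the class III PI3-kinase, had 5.78 and 4.49 in its first 2 exons with log10 p values of -98.9 and -40.5, and IFNGR2, a chain of the interferon gamma receptor, had 2.96 with -106. TNIK, a kinase of Wnt signalling, had 2.00 and 2.81, and STAG1, a cohesin subunit, had 1.58. ATR, the kinase of the replication checkpoint, and TIAM1, an activator of Rac, were listed at 7.56 with a log10 p of -1.56 in all 3 of their peaks, and DZIP3, a ubiquitin ligase, at 13 with -2.96. These last folds lie on the repeated steps described above.

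The annotation of a UTR peak names no gene, so each was assigned to the gene with the nearest start site. That gene need not be the gene whose UTR holds the peak. By this rule, 23 of the 131 hosts of YO-P also had a UTR peak, 14 in a 3′ UTR and 11 in a 5′ UTR. So had 1 of 5 hosts in YO-A and 3 of 8 in YO-F. Of the 3 such hosts of YO-P in the expression table, PLCL2 had 3.29 with a log10 p of -147 in its 3′ UTR beside exon peaks of 4.61 to 5.57. ADAMTS5 had 3.00 with -6.82 in the 3′ UTR beside its exon peak of 1.82. CGGBP1, a protein that binds CGG repeats, had 3.29 with -98.9 in its last exon. The 5′ UTR peak assigned to CGGBP1, 7.56 with -1.56, lay on the opposite strand by the order of the list, so it cannot be taken as a peak of this gene. In YO-F, EVA1C had a 3′ UTR peak of 10.4 with a log10 p of -233, far stronger than its exon peak, and BACH1 a 5′ UTR peak of 4.28 with -1.94. VGLL3 in YO-A had 8.91 in the 5′ UTR and 6.13 in the 3′ UTR beside 20.8 in the exon peak.

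The input libraries give the expression of the host genes as FPKM, fragments scaled to exon length and to the mapped reads of the library, and 36 of the 134 hosts are among the 173 genes analysed. Stages were compared by limma on log2(FPKM + 0.1) without YO-F2, and 35 hosts passed the minimum mean of 0.1. The standard of the study was kept for calls, a change of 1 or more on the log2 scale in either direction together with an unadjusted p under 0.05. For YO-F against YO-A, 1 of 35 hosts was called, while 1.54% of all 130 genes tested were. For YO-F against YO-P it was 0 of 35, with 2.31% of all genes, and for YO-P against YO-A 0 of 35, also with 2.31%. An unadjusted p under 0.05 was reached by 3, 1 and 0 hosts (9.23, 9.23 and 3.08% of all genes), and a Benjamini-Hochberg adjusted p under 0.05 by 0 hosts and 0 genes in each comparison. The median log2 fold change of the hosts was 0.00, 0.06 and -0.07, beside 0.07, 0.07 and -0.03 over all genes. In whole tissue, fewer cells of a type and less RNA per cell cannot be told apart.

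The 1 host called was EPHA3, at a low level. Its FPKM was 0.0472, 0.197 and 0.175 in YO-A, 0.361 and 0.594 in the 2 estrus libraries of the fit, and 0.193, 0.320 and 0.156 in YO-P, and it was 0.119 in YO-F2. The estrus libraries of the fit lay above those of both other stages, while YO-F2 lay among the anestrus values. The log2 fold change of YO-F against YO-A was 1.30 (SE 0.57, unadjusted p = 0.0481, limma adjusted p = 0.521), and with YO-F2 included it was 0.85 with an unadjusted p of 0.176 and no call. The call was also lost when any single library of the 8 was left out, with log2 fold changes from 0.99 to 1.60. The exact two-sided permutation p was 0.1, the smallest that 2 against 3 or 3 against 3 libraries allow, so no single gene can pass 0.05 by that test here.

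MRPS6, a protein of the small mitochondrial ribosome subunit, had the smallest p-values among the hosts, at a change under the fold threshold. Its FPKM was 60.7, 55.4 and 61.1 in YO-A, 92.9 and 77.0 in the estrus libraries of the fit, 69.4 in YO-F2, and 59.7, 64.7 and 53.3 in YO-P. All 3 estrus libraries, YO-F2 included, lay above all libraries of the other stages. The log2 fold change was 0.52 (SE 0.13) against YO-A, with an unadjusted p of 0.00393 and a limma adjusted p of 0.170, and 0.52 against YO-P with a limma adjusted p of 0.123. Its exon peak, in the last of 3 exons in YO-P, had a fold of 1.52 and a log10 p of -16.1, and the gene lies beyond the stretch the other lists cover.

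IFNAR1 had FPKM values of 16.3, 24.6 and 10.6 in YO-A, 7.04 and 11.4 in the estrus libraries of the fit, 5.78 in YO-F2, and 11.5, 11 and 10.1 in YO-P. The anestrus and estrus libraries overlapped, and the log2 fold change of YO-F against YO-A was -0.85 (SE 0.33, unadjusted p = 0.0313, limma adjusted p = 0.502). The change became -1.06 with YO-F2 included, -1.15 when anestrus replicate 3 was left out and -1.19 when estrus replicate 3 was, and each of these passed the standard of the study. It shrank to -0.50 when estrus replicate 1 was left out and to -0.55 when anestrus replicate 2 was, and limma then gave unadjusted p-values of 0.223 and 0.089. VGLL3 had 6.41, 2.24 and 2.81 in YO-A, 2.18 and 2.81 in the estrus libraries of the fit, and 5.80, 3.55 and 5.17 in YO-P, and it was at 0.135 in YO-F2. The log2 fold change of YO-F against YO-P was -0.91 (SE 0.44, limma adjusted p = 0.535), and with YO-F2 included it was -2.06 and passed the standard of the study.

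The hosts with peaks in several lists showed little spread between the stages otherwise. USP25 had a mean of 10.1 ± 2.91 FPKM (SD, n = 3) in YO-A, 12.2 ± 2.35 (n = 2) in YO-F and 12.0 ± 2.81 (n = 3) in YO-P. USP16 had 17.5 ± 0.946, 19.6 ± 0.810 and 17.9 ± 0.377, GABPA 9.68 ± 1.80, 9.46 ± 0.710 and 11.2 ± 0.529, and BACH1 4.16 ± 1.10, 3.30 ± 0.531 and 3.16 ± 0.424, with the same n. None of these 4 reached an unadjusted p of 0.05 in any of the 3 comparisons. ENSBGRG00000000034, whose exon peak was listed in all 3 stages, lay between 0.00574 and 0.0947 FPKM in all 9 libraries and did not pass the minimum for the test. In YO-F2 alone, ENSBGRG00000000124, described as a cilia and flagella associated protein, reached 309.6 FPKM against 30.2 to 47.0 in the 8 other libraries.

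**Figure D5:**
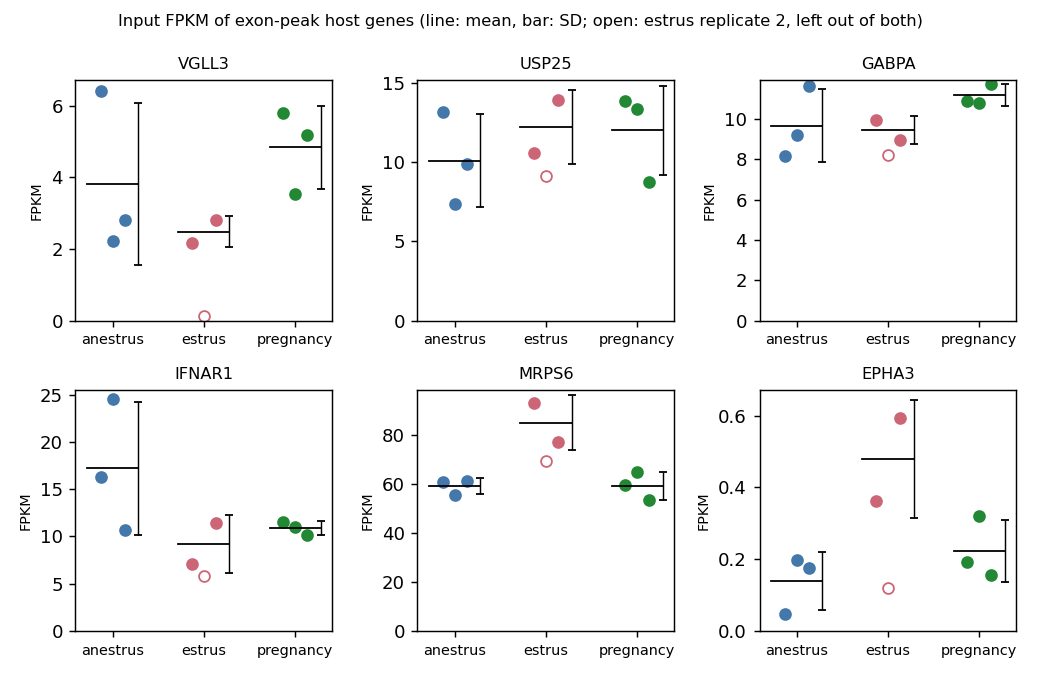
FPKM in the input libraries (y axis, from 0) of 6 host genes of exon peaks in anestrus, estrus and pregnancy (x axis), with 1 point per library, the mean as a line, the SD as a bar and YO-F2 as an open circle left out of both. MRPS6 is higher in all 3 estrus libraries than elsewhere, EPHA3 stays under 0.6 throughout, and the open circle of VGLL3 lies at 0.135.

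The level of the host went with the evidence for a peak. Across the 50 pregnancy exon peaks whose host is in the expression table, the mean pregnancy FPKM of the host had a Spearman correlation of -0.279 with the fold and of -0.645 with the log10 p, so that stronger p-values went with higher expression. Across the 33 hosts, with the strongest peak of each, the values were -0.457 and -0.711. These are descriptions over peaks that share genes, libraries and depth, and they carry no test. Hosts under 1 FPKM, 7 genes with 9 peaks, had a median fold of 7.56 and log10 p values between -1.37 and -3.16. Hosts of 10 FPKM or more, 13 genes with 20 peaks, had a median fold of 3.29 and a median log10 p of -72.8. Among the 33 hosts with expression values, SON, at 33.7 to 38.0 FPKM in YO-P, joined high expression, a fold above 10 and a strong p-value. SIAH2 and DBR1 also had a fold above 10 with a strong p-value, but no expression value here. EPHA3, LIPI and HTR1F were all under 0.4 FPKM in the pregnancy libraries. Their folds were 7.56, 5.40 and 11.9, with log10 p values of -1.56, -1.69 and -3.16.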

How the data were processed

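The authors used HISAT2 2.0.4 for alignment (Bos grunniens genome) and annotated peaks with ChIPseeker 1.18.0, both per the submitters' processing notes; the peak caller is not given in the sources used here. Per the file headers, each peak list gives fold enrichment as a ratio, the log10 of p and FDR in score columns, and a p-value; the authors deposited input expression as StringTie FPKM, with no counts, so the depth behind a value is unknown. Tables with the authors' log2 fold change and p-value of peaks between stages were not used. Of every file, the opening stretch was analysed here. 2 peaks without annotation were left out.

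The host was the gene named in the exon annotation. Span, block length, exon number and overlap (1 base of span on 1 strand) were read from the lists with Python 3.11.15, pandas 2.3.3 and scipy 1.17.1. The strand was inferred from the order of the peaks. Positions rise along a list, and where they start again from a lower value the peaks were taken as minus strand. Same-strand overlaps and gene starts and ends rest on this inference. Expression was fitted with limma 3.58.1 in R 4.3.3 (empirical Bayes with trend) on 8 input libraries, with a pseudocount of 0.1. The fit was tested on simulated data with changes larger than those of the hosts described here, so smaller changes were not covered. The test of the study works on counts, which FPKM does not hold. The labels tie libraries to animals only by number, and p-values measure the spread between these libraries. Of 109 host symbols, 103 were in the RefSeq table of another assembly, from which no coordinates were used.

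Named genes were those with the largest or smallest fold or span, several peaks or several lists, a place in the gene lists, or expression values; SIAH2, DBR1, LSG1, KALRN, GTF2E1 and SENP5 were chosen after their values were seen. The members and lists were chosen with earlier results of these data known. Alternatives were other peak thresholds, the shared stretch, block lengths, overlap rules, pseudocounts, filters, scaling, YO-F2, a replicate block and each library left out.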

Additional observations from a re-analysis of the deposited data

How the results depend on the processing

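Of the alternatives, 58 left the numbers, shares, medians, overlaps and host counts within the set bounds (1.5 times the value, or the interval of a share), and 30 moved them. A fold of at least 5 left 2 exon peaks in YO-A, 4 in YO-F and 85 in YO-P, and the stretch that all lists cover left 5 in YO-F and 4 in YO-P. The summed block length in place of the span gave medians of 180, 180 and 210 bases. In YO-F the median span became 2868 bases with the FDR under 0.05, 433.5 with 1 block only and 5026 in the shared stretch, and the median fold became 6.42 and 2.37 in the latter 2. In YO-P the median span with 1 block only was 181 bases. Peaks of 1 block only gave no anestrus value, since all 6 had several.

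Among the host genes, YO-F against YO-A called 0 instead of 1 with a pseudocount of 1 or 0.01, a mean FPKM of at least 1, median-ratio scaling, or the replicate block, and 0 to 2 with 1 library left out. EPHA3 lost its call whenever any single library was left out. Without estrus replicate 3, which leaves 1 estrus library assumed to vary like the others, IFNAR1 and MIS18A were called, and the smallest limma adjusted p among hosts was 0.0432. YO-F against YO-P called 1 instead of 0 with YO-F2 included (VGLL3), with the replicate block (VGLL3), and 0 to 1 with 1 library left out (MIS18A without estrus replicate 3, NCAM2 without pregnancy replicate 2). The study euthanized the yaks for collection, so 1 animal cannot give libraries of several stages, and the numbers were not taken as pairs. The deviations of same-numbered libraries correlated between -0.17 and 0.389, and those of different-numbered libraries between -0.387 and 0.483. With the replicate block, IFNAR1 in YO-F against YO-A had a log2 fold change of -0.69 in place of -0.85. No alternative called a host in YO-P against YO-A, and 0 of the named fold changes changed sign.

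Depth limits these values through FPKM that hold no counts, single lists per stage, and a stretch of 1 chromosome.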
